A study of Homo sapiens with 21 samples.

Results

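CYLD and 8 genes of its signalling pathway, TNFAIP3, NFKBIA, NFKB1, NFKB2, RELA, RELB, BIRC3 and TRAF1, were followed across a panel of cancer cell lines and their treatment-resistant derivatives. These 9 genes, of the 53515 in the count files, were chosen from their expression levels in these libraries and from the change of each resistant line against its parental line. Their values are therefore given as a description, without a test.

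RNA was sequenced from 17 established human cancer cell lines in 21 libraries, to ask which expression changes accompany acquired resistance. The parental lines were treatment-naive, and each resistant line had been kept in rising doses of 1 drug for months. In liver cancer, HepG2 was compared with HepG2S1 and HepG2S3 (sorafenib, a multikinase inhibitor), and in pancreatic cancer, PancVB with PancB1Q and PancB1V (5-fluorouracil, an antimetabolite). In lung cancer, HCC4006P1 was compared with HCC4006ER (erlotinib), HCC4006P2 with HCC4006GR (gefitinib) and HCC827P with HCC827GR (gefitinib), both drugs being inhibitors of the EGF receptor kinase. In ovarian cancer, UWB1.289 was compared with U10 and U100 (olaparib, a PARP inhibitor) and IGROV-1 with IGROV-1/CDDP (cisplatin, which crosslinks DNA). A replicate library existed for HepG2, HepG2S3, HCC4006P1 and HCC4006ER (2 each), and the remaining 13 lines were sequenced in 1 library. HepG2S1 and HepG2S3, PancB1Q and PancB1V, and U10 and U100 each share a parental line, so their changes are not independent of each other. The other 4 parental lines have 1 resistant line each. Among them, HCC4006P1 and HCC4006P2 are given the same cell line identifier by the study, so their pairs are not of separate origin.

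NF-kappaB is a family of dimeric transcription factors held inactive in the cytoplasm by inhibitors of the IkappaB family. In the canonical branch, TNF or interleukin-1 receptors build ubiquitin chains that activate the IKK kinases, the inhibitor is degraded, and dimers of RELA and p50 (from NFKB1) enter the nucleus. In the non-canonical branch, the kinase NIK (MAP3K14) triggers processing of NFKB2 to p52, which pairs with RELB. CYLD removes lysine-63-linked and linear ubiquitin chains and so restrains the pathway, and several inhibitors, among them NFKBIA and TNFAIP3, are themselves induced by NF-kappaB as negative feedback.

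Libraries held between 9851195 and 36639473 counts on genes, so that 3 counts were worth 0.0819 to 0.305 CPM (counts per 1000000 counts on genes). Intervals are 95% Wilson intervals that cover counting error only. HCC4006P1 replicate 1 held no count for a stretch of the genome that includes TRAF1, and the level of TRAF1 in HCC4006P1 is that of replicate 2 alone. The missing counts raise the CPM of all other genes in that library by 22.15%, so values of HCC4006P1 are also given relative to the total outside the stretch where this matters. The liver markers ALB, AFP, APOA1 and TTR summed to 16437 CPM in HepG2, to 0 CPM in HepG2S1 and to 17.2 CPM in HepG2S3. KRT7, a keratin listed among the pancreatic markers, was at 1.03 CPM in HepG2, 2733 CPM in HepG2S1 and 2912 CPM in HepG2S3. The other pancreatic markers listed were lower than in HepG2. KRT19 was at 347 CPM in HepG2, 102 CPM in HepG2S1 and 164 CPM in HepG2S3, and S100P at 199, 158 and 180 CPM. The defining markers of the labelled tissue were thus at or near 0 in both sorafenib lines, and summaries over pairs or lines that rest on them are given with and without them. The lung markers NKX2-1, NAPSA and SFTPB were near 0 in the erlotinib pair as well, at a sum of 0.423 CPM in HCC4006P1 and 0.535 CPM in HCC4006ER. Summaries of the members are not given without that pair. In the gefitinib pairs, which had the most members up, the sum was 266 CPM in HCC4006P2 against 21.2 CPM in HCC4006GR, and 91.7 CPM in HCC827P against 28.1 CPM in HCC827GR. HCC4006P1 and HCC4006P2 thus differed in these markers, although they share a cell line identifier. Of 4 measured markers of blood and endothelial cells, PTPRC and CD3E stayed at or below 0.665 CPM and CD79A at or below 1.44 CPM, while CDH5 reached 81.4 CPM in U10. CDH5 was also at 43.0 CPM in PancVB, 45.9 CPM in PancB1Q, 68.5 CPM in PancB1V and 43.9 CPM in U100. The part that these marker differences play in the results was not tested.

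Members of the pathway are classical carriers of kappaB sites, and the upstream bases of 5 members in which the kappaB consensus was found are shown for that reason. Promoter windows of 300 bases (250 before to 50 after a start) from RefSeq on GRCh38.p14 were matched by symbol to 8 members, not RELB. The kappaB consensus, searched on both strands, was found in at least 1 window of 6 of these 8 genes (75%), against 1937 of 27305 genes (7.09%) overall. NFKB2 held overlapping matches, and the windows of RELA and TRAF1 held none. Matches to the consensus are in capitals, with 20 bases shown on each side:
CYLD, chr16:50741877-50741926, plus strand: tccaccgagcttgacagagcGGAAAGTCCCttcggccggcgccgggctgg
TNFAIP3, chr6:137867172-137867233, plus strand: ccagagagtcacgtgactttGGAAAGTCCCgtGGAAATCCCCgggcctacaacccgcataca
NFKBIA, chr14:35404801-35404850, minus strand: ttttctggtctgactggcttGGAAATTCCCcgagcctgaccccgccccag
NFKB1, chr4:102501290-102501339, plus strand: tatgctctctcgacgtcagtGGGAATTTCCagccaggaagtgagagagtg
BIRC3, chr11:102317265-102317378, plus strand: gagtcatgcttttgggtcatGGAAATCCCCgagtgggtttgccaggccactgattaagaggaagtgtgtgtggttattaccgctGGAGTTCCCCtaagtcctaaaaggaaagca
TNFAIP3 held its matches 67 and 55 bases before the start, NFKBIA 81 bases, NFKB1 49 bases, CYLD 189 bases, and BIRC3 199 and 135 bases before it. CYLD and NFKB1 also had windows at other annotated starts, and these held no match before the start. A match describes the sequence only, and binding was not measured.

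Across the 10 pairs, 32 of the 90 member values passed a change of 1 on the log2(CPM + 1) scale, 28 of them upward and 4 downward. A change is always the resistant minus the parental line. Without the sorafenib pairs, 24 of 72 values passed, 22 upward and 2 downward. In bulk RNA, fewer cells of a type and less RNA per cell cannot be told apart. HCC4006GR had 7 members up by at least 1 and none down, where 7.75% of all expressed genes were up and 7.47% down. HCC827GR had 5 up and none down (10.6% and 7.67% of all genes). PancB1V had 4 up and none down (8.89% and 7.25%). These were the pairs with the most members up. U100 had 3 up and none down (6.43% and 1.73%), U10 had 2 up and none down (6.27% and 5.11%), and HCC4006ER had 1 up and none down (10.6% and 12.4%). PancB1Q had no member past 1 in either direction (6.1% and 9.41%). IGROV-1/CDDP had none up and 2 down (5.55% and 7.21%), the only pair outside the sorafenib lines with a fall that large. HepG2S1 and HepG2S3 each had 3 up and 1 down, in pairs where 25.5% and 27.3% of all genes were up and 18.4% and 17.7% were down. Because the members were chosen on these changes, nothing is read from their shares against these backgrounds. TMM-scaled library sizes moved the median change of all genes by -0.34 in HepG2S1, by -0.27 in HepG2S3 and by 0.20 in PancB1Q. With this scaling TNFAIP3 in PancB1Q (1.03), NFKB1 in HCC4006GR (1.04), NFKB2 (1.01) and TRAF1 (1.06) in PancB1V, NFKBIA (-1.31) and RELA (-1.18) in HepG2S1 passed 1 as well, and TNFAIP3 in IGROV-1/CDDP (-0.996) no longer did.

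**Figure D1:**
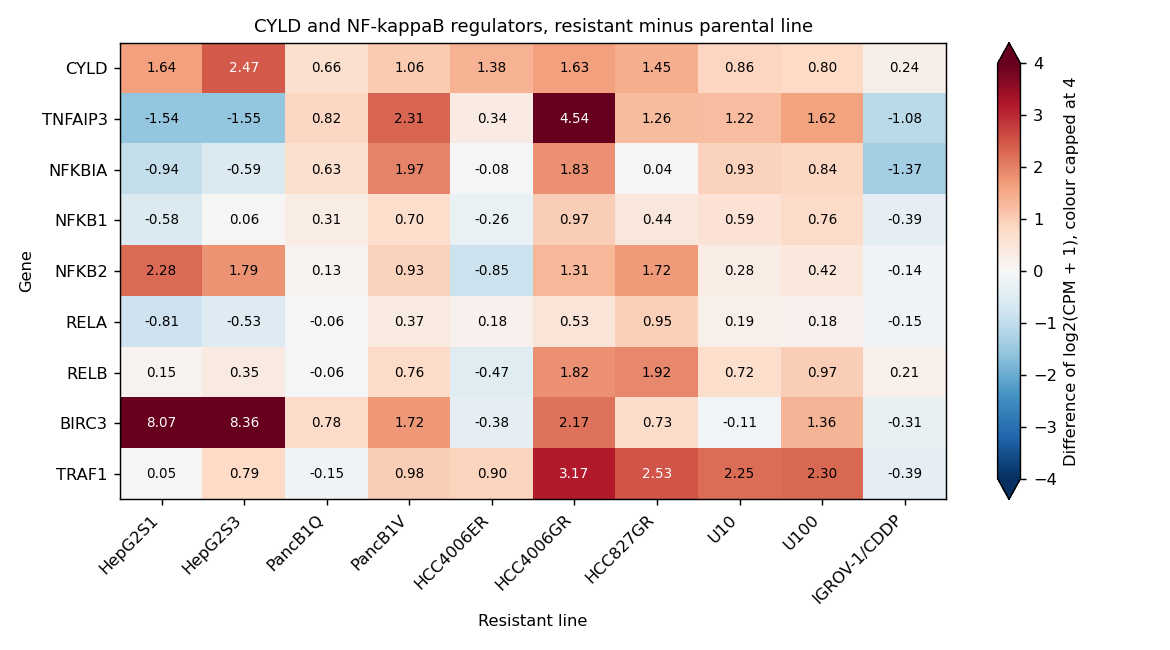
Difference of log2(CPM + 1) between each resistant line and its parental line, by gene (rows) and resistant line (columns), with replicate libraries averaged and the colour capped at 4. CYLD was above 0 in all 10 columns, BIRC3 reached 8.07 and 8.36 in the sorafenib lines, and TNFAIP3 ran from -1.55 in HepG2S3 to 4.54 in HCC4006GR.

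CYLD (ENSG00000083799, GRCh37 chr16:50775961-50835846, plus strand), the deubiquitinase, was higher in the resistant than in the parental line in all 10 pairs. HepG2 held 31.2 and 26.5 CPM, HepG2S1 91.9 CPM, and HepG2S3 158 and 170 CPM. HCC4006P1 held 41.2 and 29.8 CPM and HCC4006ER 96.1 and 91.3 CPM. Neither replicated pair overlapped, and the distance between the lines was larger than between libraries of a line. The change was 2.47 ± 0.15 (SD over 4 pairings of libraries) in HepG2S3 and 1.38 ± 0.27 (SD, 4 pairings) in HCC4006ER, where it was 1.52 with the total outside the stretch. CYLD went from 47.5 to 149 CPM in HCC4006GR, a change of 1.63 (counting interval 1.46 to 1.79), and from 50.6 to 140 CPM in HCC827GR, a change of 1.45 (1.30 to 1.60). All 3 lung pairs with an EGF receptor inhibitor thus more than doubled the CPM of CYLD. In the pancreatic lines it went from 29.8 CPM in PancVB to 47.6 CPM in PancB1Q and 63.1 CPM in PancB1V. In the ovarian lines it was 18.5 CPM in UWB1.289, 34.4 CPM in U10 and 32.9 CPM in U100, and IGROV-1/CDDP held 42.3 CPM against 35.7 CPM in the parental line. The IGROV-1/CDDP change of 0.24 (counting interval 0.07 to 0.41) was the smallest of the 10, a 1.19-fold difference. Libraries of 1 line differed in CYLD by up to 1.38-fold (HCC4006P1), and by up to 1.17-fold (HepG2) with totals outside the stretch, where the IGROV-1/CDDP difference was 1.18-fold.

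The order of CYLD levels ran from HepG2S3 (164 CPM), HCC4006GR (149 CPM) and HCC827GR (140 CPM), whose neighbours differed 1.10-fold and 1.06-fold, less than the 1.17-fold gap between libraries, to HCC4006ER (93.7 CPM) and HepG2S1 (91.9 CPM). The 7 parental lines lay between 18.5 CPM in UWB1.289 and 50.6 CPM in HCC827P. The 6 highest levels all belonged to resistant lines, and the lowest of the 17 to a parental line. Without the sorafenib pairs CYLD stayed above 0 in 8 of 8 pairs, with 4 past 1 and a median of 0.96, against a median of 1.22 over 10.

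**Figure D2:**
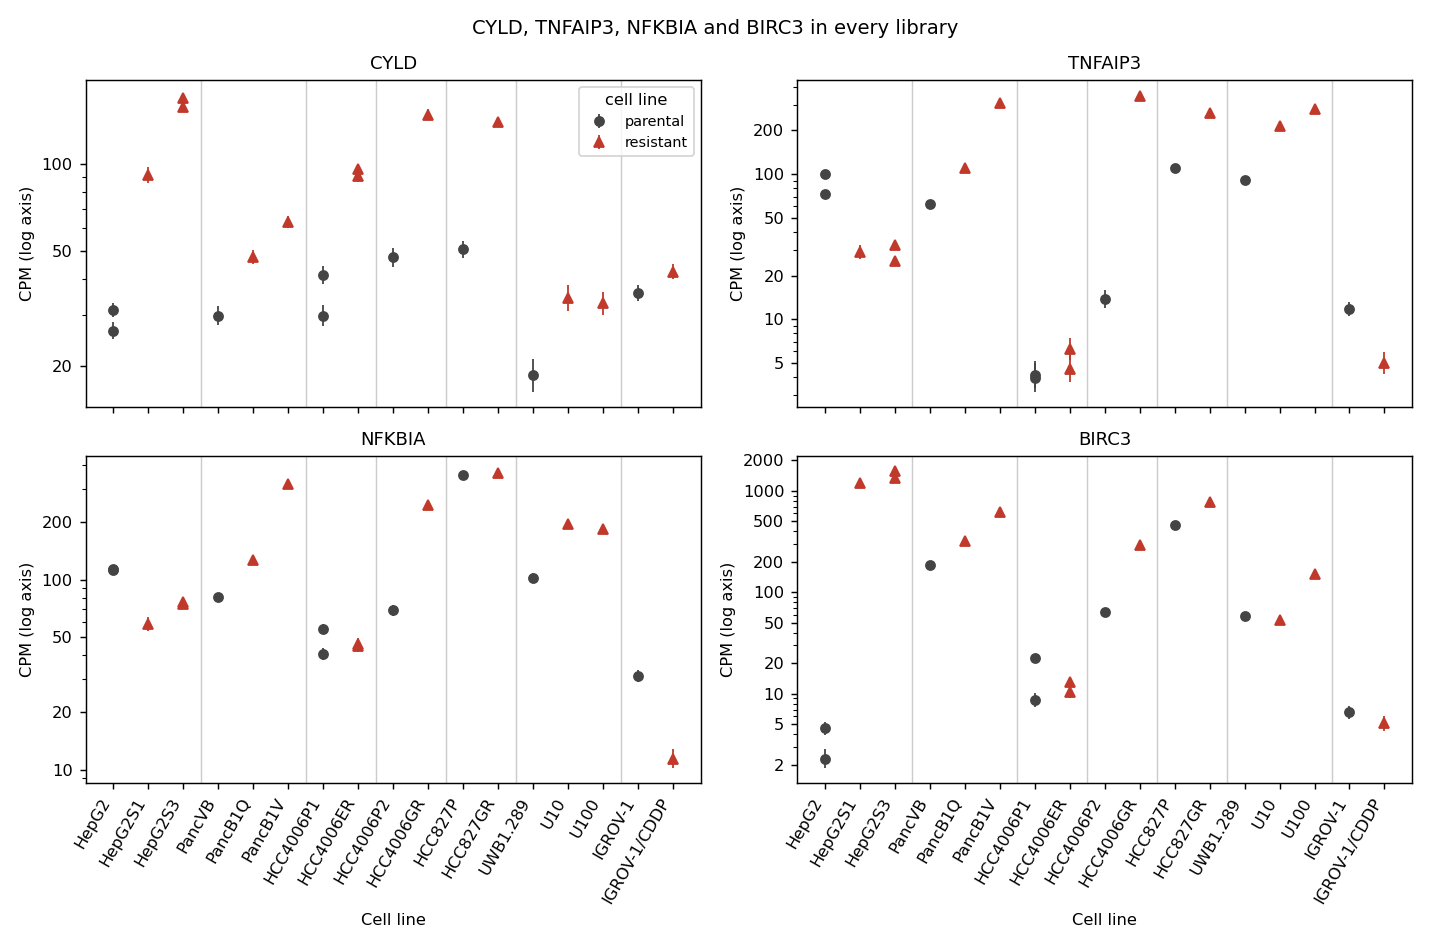
CPM of CYLD, TNFAIP3, NFKBIA and BIRC3 in each library on log axes, parental lines as circles and resistant lines as triangles, with 95% Wilson intervals and grey lines between families of lines. CYLD triangles lie above the circles of their family throughout, whereas TNFAIP3 and NFKBIA lie below them in HepG2S1, HepG2S3 and IGROV-1/CDDP.

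TNFAIP3 (ENSG00000118503, chr6:138188351-138204451, plus strand) encodes A20, which edits ubiquitin on RIPK1 and other signalling proteins. It had the widest spread of the inhibitors, from 4.05 CPM in HCC4006P1 to 344 CPM in HCC4006GR. HCC4006P2 held 13.8 CPM, so the change in HCC4006GR was 4.54 (counting interval 4.31 to 4.77), a 24.9-fold difference. TNFAIP3 also went from 61.7 CPM in PancVB to 311 CPM in PancB1V and 110 CPM in PancB1Q, and from 90.8 CPM in UWB1.289 to 213 CPM in U10 and 280 CPM in U100. In HCC827GR it was at 264 CPM against 110 CPM. These were the higher resistant lines, and 3 others were lower than their parents. HepG2 held 100 and 72.8 CPM against 29.0 CPM in HepG2S1 and 25.0 and 32.6 CPM in HepG2S3, with no overlap and a change of -1.55 ± 0.34 (SD, 4 pairings) in HepG2S3. IGROV-1/CDDP held 5.02 CPM against 11.7 CPM in IGROV-1 (change -1.08, counting interval -1.43 to -0.72). HCC4006P1 held 3.95 and 4.15 CPM and HCC4006ER 6.22 and 4.57 CPM, low in all 4 libraries, with a change of 0.34 whose counting interval (-0.15 to 0.83) spans 0.

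NFKBIA (ENSG00000100906, chr14:35870285-35873955, minus strand) encodes IkappaB-alpha, which holds RELA dimers in the cytoplasm. Its largest changes were in PancB1V, from 81.0 to 321 CPM (change 1.97, counting interval 1.87 to 2.07), and in HCC4006GR, from 68.9 to 247 CPM (1.83, 1.69 to 1.96). U10 and U100 held 196 and 185 CPM against 103 CPM in UWB1.289. HCC827P was already high at 354 CPM and HCC827GR held 365 CPM, with a counting interval of the change (-0.03 to 0.12) that spans 0. The 3 lines in which TNFAIP3 was lower than in the parent were lower in NFKBIA too. NFKBIA was at 113 and 114 CPM in HepG2, 58.6 CPM in HepG2S1 and 74.3 and 76.0 CPM in HepG2S3, without overlap. IGROV-1/CDDP held 11.4 CPM, the lowest of the 17 lines, against 31.1 CPM in its parent (change -1.37, counting interval -1.61 to -1.12). In HCC4006ER (44.5 and 46.0 CPM) it lay between the libraries of HCC4006P1 (54.9 and 40.6 CPM). Relative to the total outside the stretch the lines still overlapped, at 55.3 and 57.0 against 56.3 and 51.1 CPM. The small difference changed sign, from -0.08 to 0.06 with that total and to 0.15 without HCC4006P1 replicate 1.

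Among the subunits, NFKB1 (chr4:103422487-103538459, plus strand) and RELA (chr11:65421070-65430561, minus strand), the canonical pair, moved least, and neither passed a change of 1 in the 10 pairs with total-count CPM. NFKB1 ranged from 40.5 CPM in HepG2S1 to 161 CPM in PancB1V. Its largest change was 0.97 in HCC4006GR, from 67.5 to 134 CPM. In HepG2S3 NFKB1 held 61.4 and 66.2 CPM against 66.5 and 55.9 CPM in HepG2, so the lines overlapped, and the sign of the change of 0.06 turned to -0.23 with TMM scaling and to -0.06 without HepG2 replicate 2. RELA ranged from 42.4 CPM in HepG2S1 to 165 CPM in HCC827GR, where the parental HCC827P held 85.1 CPM. RELA was lower in HepG2S1 (42.4 CPM) and HepG2S3 (51.3 and 52.5 CPM) than in HepG2 (71.6 and 79.0 CPM), and was slightly higher in HCC4006ER (103 and 105 CPM) than in HCC4006P1 (94.6 and 88.6 CPM). Neither of these comparisons overlapped, and the change in HCC4006ER was 0.18, or 0.30 with the total outside the stretch. In PancB1Q, RELA changed by -0.06 and by 0.15 with TMM scaling.

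NFKB2 (ENSG00000077150, chr10:104153867-104162281, plus strand), the precursor of p52, was past 1 in 4 pairs. HepG2 held 24.9 and 24.2 CPM, the lowest of the 17 lines. HepG2S1 held 123 CPM and HepG2S3 82.1 and 92.4 CPM, a change of 2.28 and of 1.79 ± 0.10 (SD, 4 pairings), with no overlap. HCC4006GR (198 against 78.8 CPM) and HCC827GR (179 against 53.9 CPM) were the other pairs past 1, at 1.31 and 1.72. HCC4006ER went the other way, with 44.9 and 44.5 CPM against 95.4 and 67.2 CPM in HCC4006P1, a change of -0.85 ± 0.29 (SD, 4 pairings). With the total outside the stretch the levels were 55.8 and 55.2 CPM against 97.9 and 84.6 CPM, a change of -0.71. That pair did not overlap either. PancB1V held 192 CPM against 100 CPM in PancVB, while U10, U100 and IGROV-1/CDDP changed by 0.28, 0.42 and -0.14.

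RELB (ENSG00000104856, chr19:45504719-45541450, plus strand), the partner of p52, was past 1 in the gefitinib lines, and with a pseudocount of 0.1 CPM in U100 too (1.01). It went from 18.3 to 67.0 CPM in HCC4006GR (change 1.82, counting interval 1.56 to 2.07) and from 10.9 to 43.9 CPM in HCC827GR (1.92, 1.62 to 2.21). U100 held 31.3 CPM against 15.5 CPM in UWB1.289 and PancB1V 65.9 CPM against 38.4 CPM in PancVB. In HCC4006ER it held 10.2 and 9.96 CPM against 16.2 and 12.6 CPM in HCC4006P1, without overlap. That change was -0.47, or -0.35 with the total outside the stretch. RELB was low in all HepG2 libraries, at 8.52 to 13.3 CPM, and its change of 0.15 in HepG2S1 turned to -0.18 with TMM scaling, as did that of -0.06 to 0.15 in PancB1Q. In HepG2S3 (10.1 and 13.3 CPM against 9.36 and 8.52 CPM in HepG2) the change was 0.35 ± 0.22 (SD, 4 pairings), without overlap, and 0.08 with TMM scaling.

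**Figure D3:**
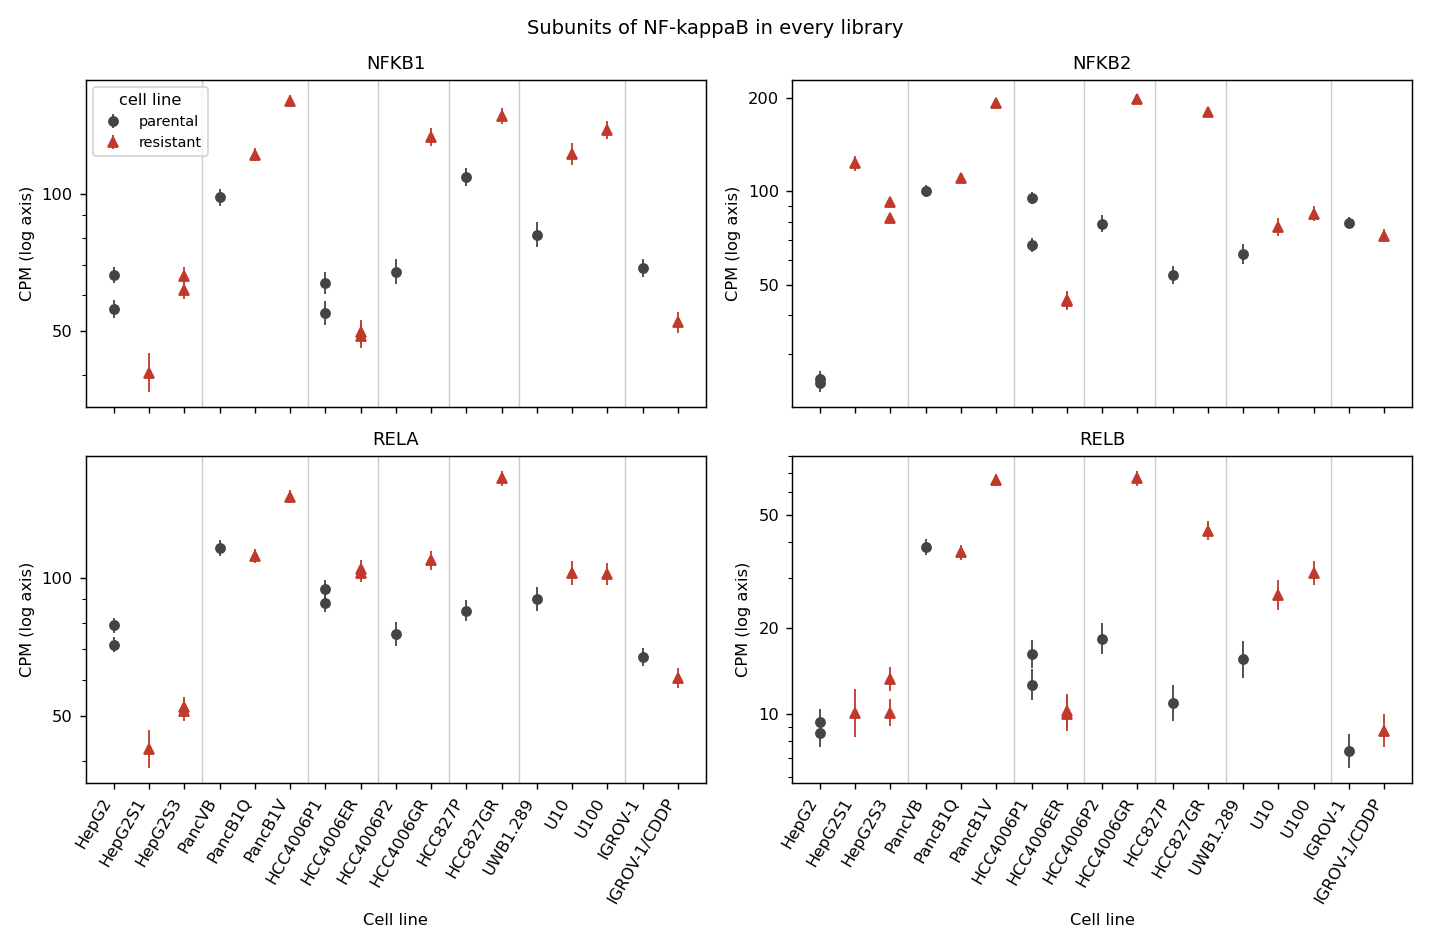
CPM of the subunit genes NFKB1, NFKB2, RELA and RELB in each library on log axes, parental lines as circles and resistant lines as triangles, with 95% Wilson intervals. NFKB2 and RELB were past a change of 1 in HCC4006GR and HCC827GR, and NFKB1 and RELA stayed below 1 in each pair with total-count CPM.

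BIRC3 (ENSG00000023445, chr11:102188215-102210134, plus strand) encodes cIAP2, a ubiquitin ligase that joins TRAF complexes and is itself an NF-kappaB target. It showed the largest differences of the 9 genes. HepG2 held 2.29 and 4.56 CPM, the lowest of the 17 lines, against 1185 CPM in HepG2S1 and 1343 and 1569 CPM in HepG2S3, the highest. The change was 8.07 ± 0.53 (SD, 2 pairings) and 8.36 ± 0.46 (SD, 4 pairings), a 346-fold and a 425-fold difference in CPM. Outside the sorafenib lines BIRC3 was past 1 in PancB1V (188 to 623 CPM), HCC4006GR (64.0 to 291 CPM) and U100 (58.4 to 152 CPM). U10, with 54.0 CPM, did not share the change of U100, and its counting interval (-0.34 to 0.11) spans 0. In HCC4006ER (12.9 and 10.5 CPM) the gene lay between the libraries of HCC4006P1 (22.6 and 8.67 CPM), which differed 2.60-fold (2.12-fold with totals outside the stretch), and the change went from -0.38 to 0.40 without HCC4006P1 replicate 1. In IGROV-1 and IGROV-1/CDDP it was low, at 6.55 and 5.10 CPM.

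TRAF1 (ENSG00000056558, chr9:123664671-123691451, minus strand), an adaptor that binds cIAP2 and TNF receptors and is induced by NF-kappaB, was past 1 in HCC4006GR, HCC827GR, U10 and U100. It went from 7.20 to 72.9 CPM in HCC4006GR (change 3.17, counting interval 2.83 to 3.50) and from 11.2 to 69.8 CPM in HCC827GR (2.53, 2.26 to 2.80). UWB1.289 held 4.99 CPM against 27.5 CPM in U10 and 28.5 CPM in U100. TRAF1 was highest by far in the pancreatic family, at 158 CPM in PancVB, 142 CPM in PancB1Q and 311 CPM in PancB1V. It stayed at or below 3.62 CPM in all HepG2 libraries, where the change in HepG2S1 was 0.05 and turned to -0.18 with TMM scaling, and in PancB1Q it turned from -0.15 to 0.06. In HepG2S3 it held 3.44 and 3.62 CPM against 1.56 and 1.69 CPM in HepG2, without overlap, a change of 0.79 ± 0.06 (SD, 4 pairings) that was 1.07 with a pseudocount of 0.1 CPM. Against HCC4006P1 replicate 2 (3.59 CPM), HCC4006ER held 8.05 and 7.14 CPM, a change of 0.90 (1.06 with a pseudocount of 0.1 CPM).

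Per length of the annotated exons, the median CPM per kilobase over the 17 lines was highest for NFKBIA (30.2), followed by BIRC3 (20.3), RELA (16.8), NFKB2 (14.6) and TNFAIP3 (13.4). NFKB1 (5.20), RELB (5.17), CYLD (3.67) and TRAF1 (1.70) were lower. Without the sorafenib lines (n = 15) BIRC3 was at 8.55, below NFKBIA (33.5), RELA (18.7), NFKB2 (14.2) and TNFAIP3 (14.1). The second place of BIRC3 thus rests on those lines. The length joins the exons of all annotated transcripts of a gene, 15679 bases for NFKB1 and 12952 bases for CYLD, and the order depends on it. The labels give a full-length kit for every library, while the methods also name a kit for transcript 3′ ends, whose counts would not scale with length, and the part of this in the order was not tested. The spread between lines had another order. The highest line was 3.90-fold above the lowest for RELA and 3.97-fold for NFKB1, 8.85-fold for CYLD, 84.7-fold for TNFAIP3, 192-fold for TRAF1 and 425-fold for BIRC3, which was 224.5-fold without the sorafenib lines. On log2(CPM + 1) over the 17 lines, TNFAIP3 went with NFKBIA (Pearson r = 0.89, n = 17) and NFKB1 (0.85), and RELB with TRAF1 (0.92). Without the sorafenib lines (n = 15) these values were 0.89, 0.91 and 0.91. CYLD went with BIRC3 at 0.56 over 17 lines and 0.42 over 15, and with NFKB2 at 0.50 and 0.54. With RELA the values were -0.01 and 0.50, and with TNFAIP3 0.09 and 0.19. Lines of a family share a parental origin, so these values describe the panel and carry no test. The genes most like CYLD among 7958 genes with a median of at least 10 CPM were ARL6IP5 (r = 0.84), ZBTB38 (0.82), MAP1B (0.81), DSEL (0.80) and RAB27B (0.78). Without the sorafenib lines (n = 15) their r was 0.81, 0.77, 0.80, 0.74 and 0.71, and only ARL6IP5 remained among the first 5, which then were TMEM165 (0.85), ADM (0.84), ARL6IP5, JRKL (0.81) and MAPK7 (0.80).

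The genes beside a member were read for the pairs in which the member passed 1. They are the nearest protein-coding genes with at least 1 CPM in either line of the pair, and some lie far away. Next to BIRC3, its paralogue BIRC2 lies 7.81 kb away and changed by 0.57 in HepG2S1 and 0.64 in HepG2S3, while YAP1, on the other side, changed by 1.91 and 2.06. In these sorafenib pairs both neighbours moved far less than BIRC3 itself. In HCC4006GR, BIRC2 changed by 1.06 and YAP1 by -0.10, where BIRC3 changed by 2.17. In PancB1V they changed by 0.57 and 0.75 against 1.72 for BIRC3, and in U100 by 0.40 and 0.36 against 1.36. Next to CYLD, NOD2 changed by 1.89 in HCC4006GR, BRD7 by 0.79 in PancB1V, by 0.21 in HCC4006ER and by 0.17 in HCC827GR, and NKD1 by -8.64 and -8.48 in HepG2S1 and HepG2S3. On its other side, SALL1 changed by -5.41 and -5.34 in the sorafenib lines and by 1.17 in HCC4006ER, and TOX3 by -0.19 in PancB1V, -1.11 in HCC4006GR and -0.93 in HCC827GR. The rises of NOD2 (0.0735 to 2.98 CPM) and of SALL1 in HCC4006ER (0 to 1.25 CPM) were at low levels. No common direction ran across the neighbours of CYLD. They lie 8.97 kb (NOD2), 92.8 kb (NKD1), 334 kb (SALL1), 373 kb (BRD7) and 1634 kb (TOX3) from it. Beside TNFAIP3, IFNGR1 (648 kb away) ran from -2.72 in HepG2S1 to 1.17 in PancB1V. On the other side, PERP (205 kb away) ran from -1.05 in IGROV-1/CDDP to 1.08 in PancB1V. Next to NFKB2, GBF1 changed by 1.34 and 1.21 and FBXL15 by 0.93 and 1.24 in HepG2S1 and HepG2S3, where NFKB2 changed by 2.28 and 1.79. In HCC827GR, GBF1 and FBXL15 changed by 0.48 and 0.72, and in HCC4006GR, GBF1 and PSD changed by -0.07 and -0.34. The neighbours of NFKBIA (PSMA6 and RALGAPA1) stayed within 0.51, those of RELB (CLPTM1 and CLASRP) within 0.88 and those of TRAF1 (PHF19 and C5) ran from -1.54 to 0.51.

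The other genes of the pathway were taken from a list of 66 genes, of which 62 were found in the count files. The members were not part of it, so they could be tested where a line had replicates, although the list was drawn up with earlier results of these data known. In HepG2S3 against HepG2, edgeR's quasi-likelihood test called 18 of 55 genes higher and 18 lower at a Benjamini-Hochberg adjusted p under 0.05, where 31.4% and 32.1% of all 16929 genes were called. The median log2 fold change of the 55 genes was -0.02. By role, 7 targets rose and 6 fell of 14, 5 ligands and receptors rose and 2 fell of 9, and 2 adaptors and ubiquitin enzymes rose and 4 fell of 12. Of the kinases, 2 rose and 1 fell of 8, and of the inhibitors and the fifth subunit, 2 rose and 5 fell of 12. The list thus split in both directions, at shares close to those of all genes.

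The rises in HepG2S3 included cytokine and prostaglandin genes. TNFAIP2 went from 5.35 and 2.15 CPM to 243 and 214 CPM, a log2 fold change of 5.61 ± 0.47 (SE; edgeR adjusted p = 0.000434). IL1B, the interleukin-1 beta ligand, went from 0.109 and 0.0574 CPM to 8.34 and 5.81 CPM (6.03 ± 0.45, edgeR adjusted p = 0.000302). CD83 (3.92 ± 0.28, edgeR adjusted p = 0.000251) and the chemokine CXCL3 (5.14 ± 0.37, edgeR adjusted p = 0.00026) rose as well. PTGS2, the inducible cyclooxygenase, had 1 count in both HepG2 libraries and 380 in those of HepG2S3, a 434-fold ratio with a counting interval from 77 to 17171. The falls were of comparable size. ICAM1, an adhesion molecule for leukocytes, went from 257 and 329 CPM to 0.125 and 0.653 CPM (-9.87 ± 0.57, edgeR adjusted p = 0.000135). The chemokine CCL20 went from 239 and 141 CPM to 0.344 and 0.294 CPM (-9.52 ± 0.42, edgeR adjusted p = 6.97e-05). CSF1 (-6.82 ± 0.19), the receptor CD40 (-6.44 ± 0.49) and the interleukin-1 receptor IL1R1 (-5.53 ± 0.31) fell with edgeR adjusted p of 2.96e-05, 0.000308 and 0.000122. Targets of NF-kappaB therefore lay at both ends. In HepG2S1, which had 1 library, ICAM1 and IL1R1 held 2 and 3 counts, so that HepG2 was 1439-fold (398 to 11885) and 636-fold (218 to 3085) higher.

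In HCC4006ER against HCC4006P1, on the genes outside the stretch without counts, edgeR called 8 of 48 pathway genes higher and 14 lower, against 24.1% and 24.9% of all 12791 genes. The median log2 fold change of the 48 genes was -0.29. Of the targets 3 rose and 5 fell of 13, of the inhibitors and the fifth subunit 1 rose and 4 fell of 12, and of the ligands and receptors 1 rose and 2 fell of 8. Of the adaptors and ubiquitin enzymes 2 rose and 2 fell of 9, and of the kinases 1 rose and 1 fell of 6. MAP3K14, the kinase NIK of the non-canonical branch, went from 23.3 and 26.4 CPM to 84.8 and 91.4 CPM (1.85 ± 0.20, edgeR adjusted p = 0.000536), while NFKB2 and RELB were lower there, as given above. In HepG2S3, where NFKB2 was higher, MAP3K14 rose too, from 7.61 and 4.71 CPM to 28.0 and 33.1 CPM (1.99 ± 0.28, edgeR adjusted p = 0.0023), a value named after it was seen. CSF1, which fell in HepG2S3, rose from 16.5 and 9.90 CPM to 52.9 and 53.3 CPM (2.09 ± 0.17, edgeR adjusted p = 0.000159). IL1R1 (1.54 ± 0.26) and BCL3 (0.83 ± 0.18), a nuclear partner of p50 and p52, rose with edgeR adjusted p of 0.00333 and 0.00872. CSF2 rose from 0.534 and 0.615 CPM to 1.57 and 1.28 CPM (1.34 ± 0.37, edgeR adjusted p = 0.0231), and this call was lost with DESeq2 (adjusted p = 0.138) and without HCC4006P1 replicate 1, HCC4006ER replicate 1 or HCC4006ER replicate 2 (edgeR adjusted p = 0.052, 0.212 and 0.0962). TRAF6, the ubiquitin ligase of interleukin-1 and Toll-like receptors, went from 94.1 and 62.2 CPM to 15.2 and 15.0 CPM (-2.30 ± 0.14, edgeR adjusted p = 5.93e-05). BCL2L1, a survival gene, went from 398 and 525 CPM to 74.0 and 87.2 CPM (-2.51 ± 0.26, edgeR adjusted p = 0.000495). IRF1 (-1.02 ± 0.19), the receptor TLR3 (-2.86 ± 0.57) and CXCL2 (-2.88 ± 0.64) fell with edgeR adjusted p of 0.00513, 0.00683 and 0.0105. With the stretch kept in the fit, the edgeR calls of IL1R1, BCL3, CSF2, IRF1, TLR3 and CXCL2 were lost (adjusted p from 0.059 to 0.0804). Nothing in the labels says that libraries of a line came from separate cultures, so these p-values measure the spread between libraries, which may be technical.

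**Figure D4:**
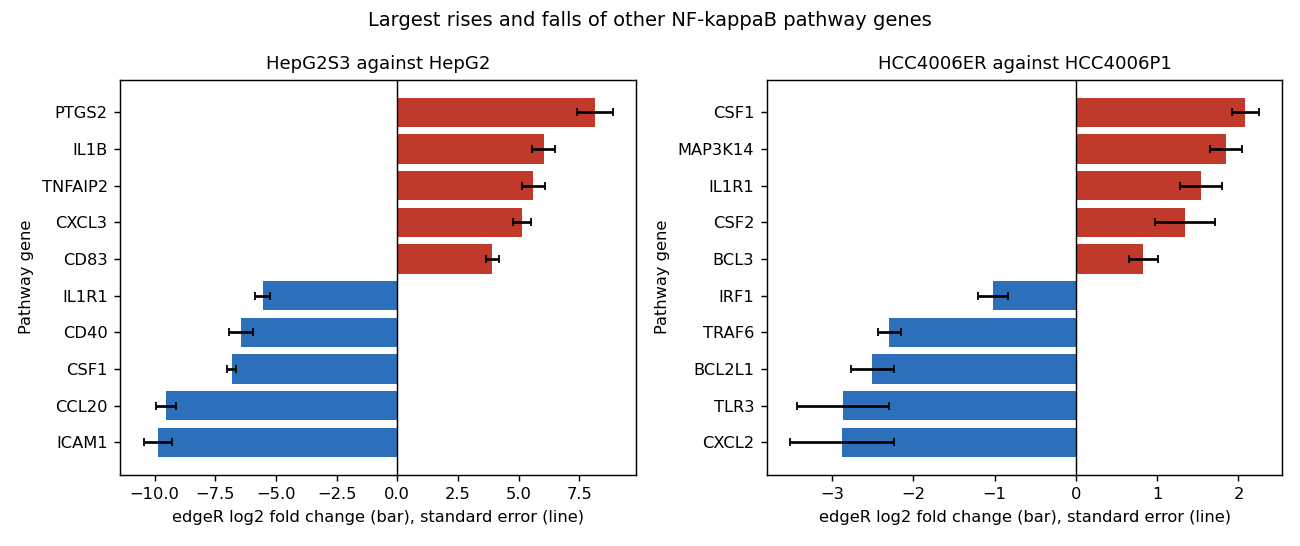
edgeR log2 fold change (bars) and standard error (lines) of up to 5 rises and 5 falls among pathway genes that were not members, in HepG2S3 against HepG2 (left) and HCC4006ER against HCC4006P1 (right), 2 libraries a line. CSF1 and IL1R1 fell in HepG2S3 and rose in HCC4006ER.

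In the pairs without replicates on both sides the list is given by its counts and median. In HCC4006GR, 25 of 60 pathway genes were up by at least 1 and none down (7.75% and 7.47% of all genes), with a median of 0.69 against -0.08 for all genes. Its targets had a median of 2.83, with 14 of 17 up by at least 1. CXCL1 went from 0.367 to 114 CPM and CSF2 from 2.13 to 211 CPM. In U100, 21 of 58 were up and none down (6.43% and 1.73% of all genes, median 0.54 against 0.07). In U10, 17 of 59 were up and 2 down (6.27% and 5.11%, median 0.36 against -0.02), and in PancB1V, 16 of 62 were up and 2 down (8.89% and 7.25%, median 0.31 against -0.01). The chemokine CCL20 went from 0.430 CPM in UWB1.289 to 20.2 CPM in U10 and 54.5 CPM in U100, where CXCL1 went from 66.3 to 557 CPM, and CSF2 went from 2.32 to 30.4 CPM in U10. In the pancreatic family TNF, the canonical ligand, was at 1.24 CPM in PancVB, 34.0 CPM in PancB1Q and 109 CPM in PancB1V, where CXCL1 went from 13.1 to 271 CPM. The ligands and receptors of PancB1V as a group had a median of -0.18, with 4 of 12 above 0.

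In HCC827GR, 10 of 58 pathway genes were up and 2 down (10.6% and 7.67% of all genes, median 0.38 against 0.05). IL6 went from 8.42 to 90.6 CPM there. VCAM1, an adhesion molecule, had no count in HCC827P and 418 CPM in HCC827GR. That is 2417-fold higher when the parental library is set at its floor of 3 counts (0.173 CPM), with 1965-fold as the lower limit of the two-sided exact 95% interval. In PancB1Q, 4 of 59 were up and 10 down (6.1% and 9.41% of all genes, median -0.27 against -0.12), with IL6 at 15.7 CPM in the parental and 2.00 CPM in the resistant line. In IGROV-1/CDDP, 1 of 47 was up and 4 down (5.55% and 7.21%, median -0.21 against -0.06), with IL1R1 at 52.0 and 5.34 CPM and IER3 at 28.4 and 6.92 CPM in the parental and the resistant line. HepG2S1 had 16 of 55 up and 9 down, near the 25.5% and 18.4% of all genes, with a median of 0.17 against 0.25. The medians of the kinases ran from -0.25 in IGROV-1/CDDP to 0.39 in HepG2S3.

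**Figure D5:**
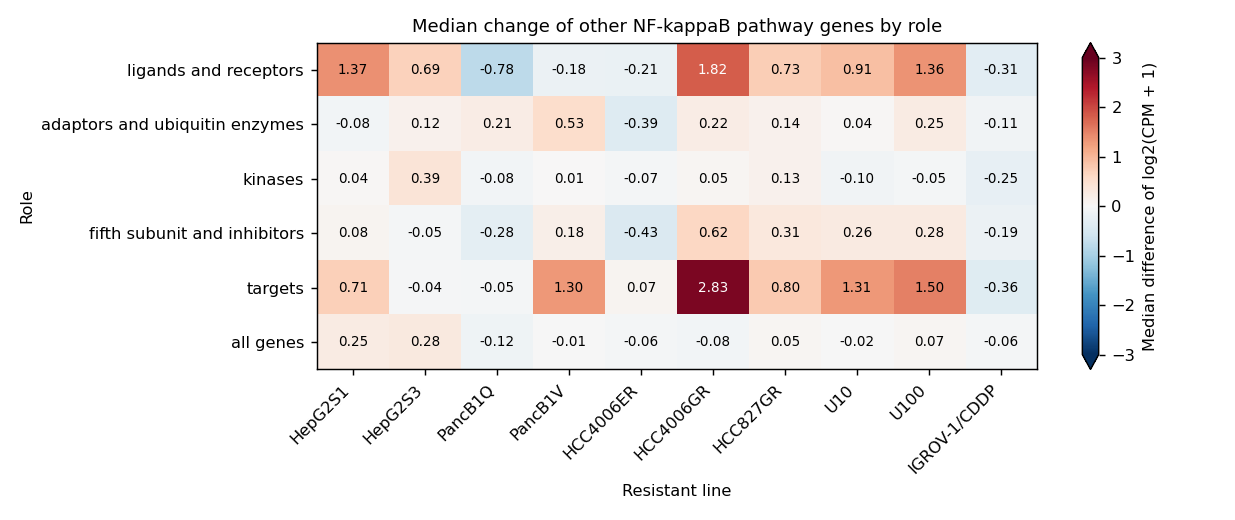
Median difference of log2(CPM + 1), resistant minus parental line, of pathway genes with at least 1 CPM in either line, by role (rows) and resistant line (columns), with the median of all genes in the last row. Targets reached 2.83 in HCC4006GR, 1.505 in U100, 1.31 in U10 and 1.30 in PancB1V, and kinases ran from -0.25 to 0.39.

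Over the 7 parental lines, with counts summed per parental line and state and the parental line as a block, edgeR called 0 of 57 pathway genes, as it called 0 (0%) of all 15501 genes in either direction. HCC4006P1 and HCC4006P2, which share a cell line identifier, entered as separate blocks. Of the 57, 6 had an unadjusted p under 0.05, and DESeq2 called 1, IL6, named after its values were seen. Without the HepG2 family edgeR again called 0 of 57, and 0 of all 15223 genes. Again 6 of the 57 had an unadjusted p under 0.05, and DESeq2 called 2, CXCL1 and CSF2. The share of all genes with such a p or a DESeq2 call was not taken, so nothing is read from these counts. CSF2 had an edgeR log2 fold change of 2.76 ± 0.86 (SE; adjusted p = 0.991). The pathway genes thus did not pass the test as a shared change of resistant lines.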

How the data were processed

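Total RNA of 17 cell lines was sequenced in 21 libraries, and the authors deposited whole-number read counts by gene, 1 file a library and not normalized. Per the labels and the study's methods, reads were trimmed, mapped to hg19 with TopHat and Bowtie or STAR, and counted with HTSeq. The submitters' processing notes name Bowtie, TopHat, SAMtools and HTSeq. The labels give a stranded kit for mRNA for every library, while the methods also name a kit for transcript 3′ ends. Symbols and positions were taken from a GENCODE annotation on GRCh37, which matched 45100 of 53515 genes (84.3%).

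The 9 members and the lists of other pathway genes and markers were chosen with earlier results of these data known. As in the study's methods, CPM are counts relative to the sum over genes of that library. Libraries of a line were averaged, and a change is the difference of log2(CPM + 1), a scale that compresses changes of low genes. A gene counted as expressed in a pair with at least 1 CPM in either line. Intervals are 95% Wilson intervals, with those of a change taken from the outer bounds of both lines, counts of 1 to 3 were compared with exact binomial intervals, and a count of 0 was set to a floor of 3 counts. Genes without counts in HCC4006P1 replicate 1, from GARS1 on chromosome 7 onward (18.13% of the counts of replicate 2), were treated as missing there.

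Pathway genes were tested with the quasi-likelihood test of edgeR 4.0.16 (TMM, filterByExpr, Benjamini-Hochberg adjustment over all genes tested, threshold 0.05), and each test was tested on simulated data. The test gives no SE, so the SE printed with edgeR values is the size of the log2 fold change over the square root of the test's F statistic. DESeq2 1.42.0 was an alternative. Named were all members, up to 5 rises and 5 falls of pathway genes per edgeR test (called, mean of at least 1 CPM, libraries of both lines not overlapping), the 2 pathway genes with the largest change per pair without replicates, the 5 genes most like CYLD, and the expressed gene on either side of a member that passed 1. The kappaB consensus was searched in RefSeq promoter windows of GRCh38.p14. The letters of the line names served as replicate numbers. Another label numbers the HepG2 libraries alike, and the HepG2S3 libraries alike, so their independence is unsure. Libraries of a line differed by more than sampling noise (chi-square per degree of freedom 5.85 to 98.6), so none was counted as a duplicate. R 4.3.3 and Python 3.11.15 were used.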

Additional observations from a re-analysis of the deposited data

Results flagged for a closer look

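In the replicated pairs, 4 members moved in opposite directions in every pairing of libraries. TNFAIP3 changed by -1.55 in HepG2S3 and 0.34 in HCC4006ER, NFKB2 by 1.79 and -0.85, RELA by -0.53 and 0.18, and RELB by 0.35 and -0.47 (difference of log2(CPM + 1), resistant minus parental line). With the total outside the stretch, the changes in HCC4006ER were 0.45 for TNFAIP3, -0.71 for NFKB2, 0.30 for RELA and -0.35 for RELB. The difference between the pairs was not tested, since the members were chosen on their changes. The changes of TNFAIP3, RELA and RELB in HCC4006ER and of RELB in HepG2S3 are under 0.5 in size, and the counting interval of TNFAIP3 in HCC4006ER (-0.15 to 0.83) spans 0.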

How the results depend on the processing

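The count of 32 member values past a change of 1 stayed between 32 and 37 with a pseudocount of 0.1 CPM, TMM-scaled library sizes, the total outside the stretch without counts, no filter or each replicate library left out, and was 24 without the sorafenib pairs, an alternative chosen after seeing the data. Of the members' single values, 36 of 359 under alternatives moved by more than the spread of their libraries or counts, mostly with TMM scaling in HepG2S1, HepG2S3 and PancB1Q. The total outside the stretch moved the median change of all genes in HCC4006ER by 0.13.

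For HepG2S3, 36 called pathway genes became 38 with DESeq2, 35 with all genes that had a count, 34 with the replicate block and 27 to 47 when 1 library was left out. For HCC4006ER, 22 called genes became 20 with DESeq2, 24 with all genes that had a count, 31 with the replicate block, 9 with all genes kept, where the stretch without counts enters the fit, and 14 to 33 when 1 library was left out, with 14 without HCC4006ER replicate 1. Without HCC4006P1 replicate 1 the count was 33. The replicate numbers are only shared letters, and the correlation of same-numbered deviations was 0.0153 for HepG2 and HepG2S3 and 0.386 for HCC4006P1 and HCC4006ER. With 1 library left out, the lone library is assumed to vary like the other line. For both pairs the share of all genes called was taken in the main setting only. The counts under alternatives are therefore not read as a result about the pathway. Over the 7 parental lines, the count of 0 became 1 with DESeq2 and stayed 0 with all genes that had a count, all genes kept, without HCC4006P1 and HCC4006ER, or without the HepG2 family (chosen after seeing the data); the cause was not tested. Of 20 named pathway genes, no direction changed in any alternative, and 10 of 150 calls were lost, all in HCC4006ER and 5 of them for CSF2.

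Depth limits genes below about 0.305 CPM, the worth of 3 counts in the shallowest library, and 7 of 10 pairs have 1 library on each side.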
